A study of Mus musculus with 4 samples.

Results

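The aryl hydrocarbon receptor and hypoxia pathway was followed through 10 genes: the receptor Ahr, its dimerization partner Arnt, its repressor Ahrr, the targets Cyp1a1, Cyp1b1 and Tiparp, the hypoxia-inducible subunit Hif1a, the prolyl hydroxylases Egln1 and Egln3, and the ubiquitin ligase component Vhl. The members were taken as every probe set that the platform annotation assigns to 1 of these symbols alone, which gave 25 of 45037 probe sets. All 10 genes had at least 1 probe set, and 21 of the 25 had a mean value above the median of all probe sets. The 4 below it were the 3 of Cyp1b1 and the dimmest of Arnt.

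RNA was measured on 4 arrays, 2 of IL-10+ and 2 of IL-10- CD4+CD25+ T-cells, a gate that is rich in regulatory T-cells (Tregs). The cells came from lymph nodes of C57BL/6 mice aged 6 to 12 weeks that had received the superagonistic CD28 antibody D665 (CD28SA) 3 days earlier, and all of them were then restimulated overnight in culture, through CD3 with 2 µg/ml and through CD28 with 5 µg/ml of antibody, in the presence of human IL-2 at 200 U/ml. The sort on secreted IL-10 is the only difference the labels give between the groups, so neither was unstimulated, and no sort on Foxp3 is named for the arrayed cells. Il10 itself checks the labels, with 12.02 and 12.00 on the IL-10+ arrays and 10.41 and 10.37 on the IL-10- arrays. Whether the samples of a group are separate mice or sorts is not stated, so each p-value reflects the spread of these samples alone, and that spread may be technical.

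AHR is a ligand-activated transcription factor that waits in the cytosol with HSP90 and, once bound by tryptophan metabolites or dietary and environmental ligands, enters the nucleus and pairs with ARNT on sites with the core GCGTG. HIF1A uses the same partner on sites whose core is often ACGTG, the only form called the HIF core here. In oxygenated cells HIF1A is hydroxylated by the EGLN enzymes and handed by VHL to the proteasome. In T-cells AHR is known for its part in barrier immunity and in IL-10 production, and HIF1A for the switch to glycolysis.

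Values are given as deposited, on a log scale. The base of the deposited values is not stated. It was read as 2 here, although the study's legends give its array differences as natural logs, so the base is not settled. Every fold, every log2 label and every sum on the linear scale below holds for base 2. The folds would be larger with natural logs, whereas the differences as deposited and their adjusted p do not depend on the base. Differences are IL-10+ minus IL-10-, and the words rose and fell are kept for probe sets whose adjusted p from limma, over all probe sets, was under 0.05. Several probe sets can read 1 gene at different places of its transcript, and they are listed here by their identifiers from the highest to the lowest mean value. Of the 25 member probe sets, 13 rose and 3 fell, whereas 13.6% of all probe sets rose and 16.2% fell. Calls were more frequent among brighter probe sets. When only the 22519 probe sets at or above the median mean value were fitted, 5014 of them rose and 7151 fell. Of the members among them, 13 rose and 4 fell. After median centring, which lowered the median difference over all probe sets from 0.01 to -0.07, 11 of the members rose and 5 fell, against 4668 higher and 10076 lower of all probe sets (6133 and 7307 as deposited). The groups did not overlap for 21 members and for 63% of all probe sets. At 2-fold and an adjusted p under 0.001, the threshold of the methods, 5 members were higher and 0 lower, against 1.72% and 0.575% of all probe sets. The median difference was 0.23 over the members and 0.01 over all probe sets. By the brightest probe set of each gene, 5 of the 10 genes rose (Ahr, Ahrr, Tiparp, Hif1a and Egln3) and 1 fell (Egln1), against 8.37% and 22.9% of 18193 genes. Egln3 is counted by its brightest probe set alone, and its other probe set fell. With the probe sets of a gene averaged, 5 genes rose too, with Vhl in place of Egln3, and 2 fell (Egln1 and Cyp1a1). Leaving out IL-10+ replicate 1 leaves 1 array in that group. The brightest probe sets of Ahr, Ahrr, Tiparp, Hif1a and Egln3 then differed by 0.55, 0.32, 0.63, 0.28 and 0.23.

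**Figure D1:**
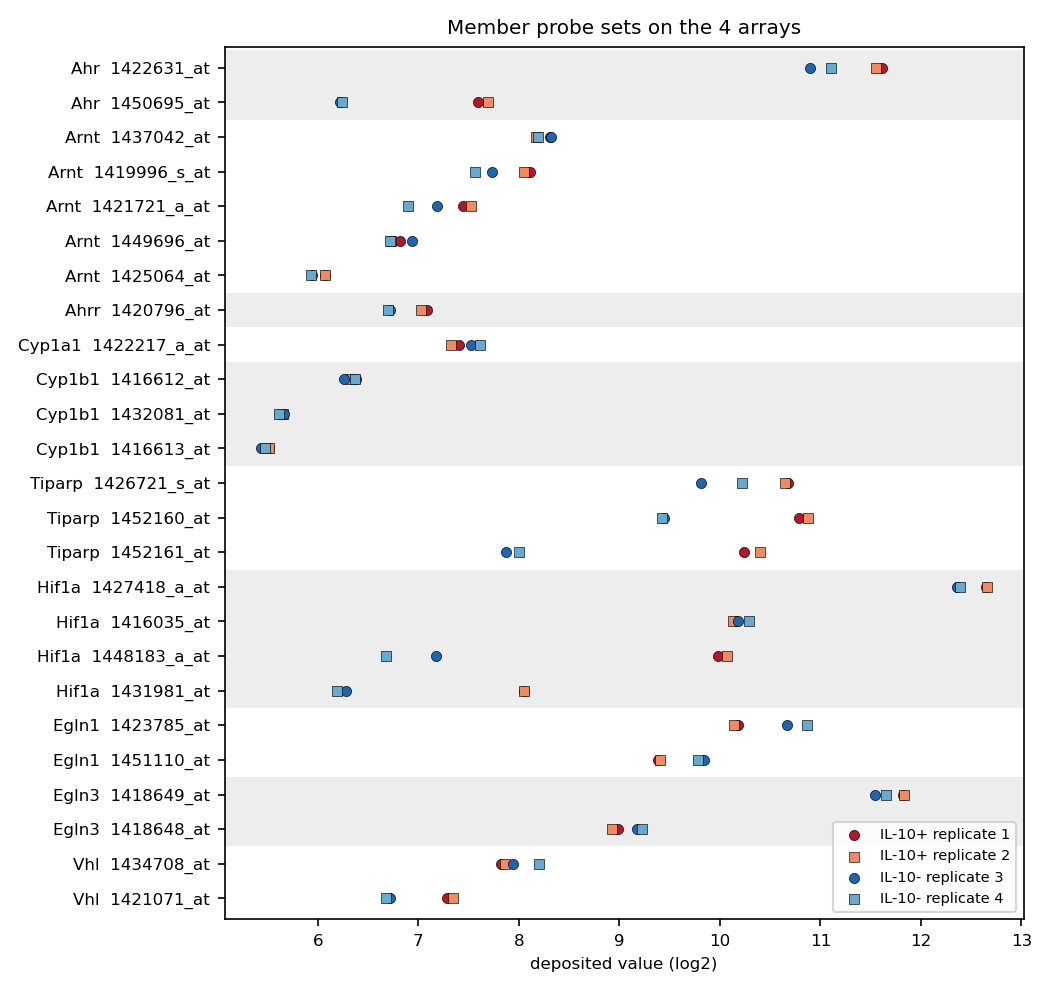
Deposited values (log2, horizontal axis) of the 25 member probe sets on the 4 arrays, 1 symbol per array, ordered within each gene by mean value. The IL-10+ arrays (red, orange) lie to the right of the IL-10- arrays (blue) for both probe sets of Ahr and all 3 of Tiparp, and to the left for both of Egln1.

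Array medians ran from 6.31 to 6.41, and the median absolute difference between replicates was 0.0633 for the IL-10+ pair and 0.0839 for the IL-10- pair. Bacterial control transcripts added for labelling were higher in IL-10+ samples at the 5' end, by 1.22 (median of 4), and in the middle, by 0.82, but differed by 0.04 at the 3' end. Transcripts of the cells themselves went the same way, beta-actin differing by 1.12 in its 5' and by 0.40 in its 3' probe set, and Gapdh by 0.88 and 0.02. Members with several probe sets were therefore given probe set by probe set, and the part of this 5' difference in them was not tested. Of the markers of the gate, Cd4 (0.51) and Ctla4 (0.87) were higher, Foxp3 (-0.72) and Ikzf2 (-0.55) lower, and Cd3e, Cd3d and Il2ra did not pass. Of 10 measured markers of B cells and plasma cells, 7 were lower and 0 higher. The sum of their values on the linear scale was 894 to 908 on the IL-10+ and 2854 to 2974 on the IL-10- arrays. Most of that gap rests on Jchain (IL-10+ mean 7.70 against 10.44) and Mzb1 (6.44 against 9.19). Of 9 markers of myeloid and dendritic cells 3 were higher and 0 lower, with sums of 1794 to 1833 and 1244 to 1281. These sums rest largely on Cd68, the brightest of the 9 (means 10.06 against 9.16), and 6 did not pass. Of 3 NK cell markers 2 were lower (sums 186 to 191 and 293 to 312), and of 2 CD8 markers 1 was lower (304 to 320 and 349 to 382). The part of these cells in the results below was not tested, and fewer cells of a type and less RNA per cell cannot be told apart in such samples.

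Ahr, the receptor, rose in both of its probe sets. The brighter one, 1422631_at, read 11.62 and 11.55 on the IL-10+ arrays and 10.90 and 11.11 on the IL-10- arrays. The difference was 0.58 (standard error 0.08, adjusted p = 0.00153 from limma), which is 1.496-fold. The dimmer one, 1450695_at, read 7.60 and 7.70 against 6.22 and 6.24. Here the difference was 1.42 (standard error 0.07, adjusted p = 1.56e-05), or 2.67-fold. The groups were thus apart in both, and over 9 alternatives of the processing the difference ran from 0.48 to 0.71 in the first and from 1.34 to 1.47 in the second, past the threshold in each. The probe sets disagreed in size by 0.84, a gap that 1386 of 9010 genes with several probe sets exceeded.

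Arnt, the partner that AHR and HIF1A share, rose in 2 of its 5 probe sets. Its brightest probe set, 1437042_at, read 8.31 and 8.17 against 8.33 and 8.19, a difference of -0.02 (standard error 0.08, adjusted p = 0.91) with overlapping groups. Its sign turned after quantile normalization (0.0191). The next, 1419996_s_at, read 8.11 and 8.05 against 7.73 and 7.56 and rose by 0.44 (standard error 0.08, adjusted p = 0.00399). The suffix s marks a probe set that can match more than 1 transcript family. The middle one, 1421721_a_at, rose by 0.45 with 7.45 and 7.53 against 7.19 and 6.89, but did not pass without IL-10+ replicate 2 (0.41, adjusted p = 0.0578). The last, 1449696_at and 1425064_at, differed by -0.05 and 0.13 and did not pass. Averaged over its probe sets, Arnt differed by 0.19 (adjusted p = 0.0692). Arnt2, a paralog of Arnt that is better known from the nervous system, rose by 0.40 in its brightest probe set (8.11 against 7.71, adjusted p = 0.00384) and by 0.29 in another of its 3, while the remaining one differed by 0.22 and did not pass.

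Ahrr, which competes with AHR for ARNT and is itself induced by AHR, rose in its only probe set, 1420796_at. It read 7.09 and 7.03 on the IL-10+ arrays against 6.71 and 6.70, a difference of 0.35 (standard error 0.06, adjusted p = 0.00456) or 1.28-fold. Without IL-10+ replicate 1, which leaves 1 array in that group, the difference was 0.32 and narrowly did not pass.

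Among the targets Tiparp rose and the cytochromes did not. To show where the AHR-ARNT core stands in genes that differ in this way, the 250 bases before the RefSeq start site (GRCm38.p6) are printed for Tiparp, Ahrr and Cyp1a1, with every match of GCGTG, or of CACGC on the other strand, in capitals. They lie at chr3:65528197-65528446, plus strand, at chr13:74292332-74292581, minus strand, and at chr9:57697363-57697612, plus strand, each written 5' to 3' in the direction of its gene.
Tiparp: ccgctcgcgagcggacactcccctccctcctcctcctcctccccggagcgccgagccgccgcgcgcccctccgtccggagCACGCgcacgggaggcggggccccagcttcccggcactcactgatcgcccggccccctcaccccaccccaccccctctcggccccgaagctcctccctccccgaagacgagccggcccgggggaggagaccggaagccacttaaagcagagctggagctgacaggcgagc
Ahrr: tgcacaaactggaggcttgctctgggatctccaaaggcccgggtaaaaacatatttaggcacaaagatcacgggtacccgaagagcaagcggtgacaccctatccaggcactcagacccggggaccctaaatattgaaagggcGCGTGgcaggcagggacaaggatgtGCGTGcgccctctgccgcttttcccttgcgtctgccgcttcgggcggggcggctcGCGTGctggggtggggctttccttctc
Cyp1a1: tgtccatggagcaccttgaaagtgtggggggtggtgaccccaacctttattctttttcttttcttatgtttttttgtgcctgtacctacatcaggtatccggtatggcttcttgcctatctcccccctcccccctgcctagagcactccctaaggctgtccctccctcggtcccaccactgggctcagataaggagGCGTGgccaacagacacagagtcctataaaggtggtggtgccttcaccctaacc

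The core began 170 bases before the start of Tiparp, 107, 82 and 27 bases before that of Ahrr and 54 before that of Cyp1a1. The window of Cyp1b1 held 1 match 76 bases before the start, so each of these 4 genes had at least 1. Of 32851 promoters of the table, 28.2% held the core within the same 250 bases. RefSeq sequences were matched for 9 of the 10 members, all but Ahr. A match of 5 letters is a description of the window, not a binding site.

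Tiparp, a mono-ADP-ribosyltransferase that acts back on AHR, rose in all 3 probe sets. The dimmest, 1452161_at, read 10.24 and 10.40 on the IL-10+ arrays and 7.87 and 7.9998 on the IL-10- arrays, a difference of 2.39 (standard error 0.08, adjusted p = 5.24e-06) or 5.23-fold with base 2 and 10.9-fold with natural logs. By size of the rise it ranked 34 of 45037. Probe set 1452160_at read 10.79 and 10.88 against 9.44 and 9.42, a rise of 1.40 (standard error 0.07, adjusted p = 1.58e-05). The brightest, 1426721_s_at, with the suffix s, read 10.68 and 10.65 against 9.82 and 10.22, and rose by 0.65 (standard error 0.12, adjusted p = 0.00536). In the last of these the IL-10- arrays stood 0.40 apart, with a standard deviation of 0.28, the widest spread of the 3. All 3 passed under each of the 9 alternatives, with differences from 0.45 to 0.85 for the brightest and from 2.30 to 2.47 for the dimmest. The rise was larger the dimmer the probe set, and the span of 1.74 ranked 185 of 9010 genes with several probe sets. The part of the 5' difference of the control transcripts in this span was not tested.

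Cyp1a1, the cytochrome that is the classical readout of AHR ligands in liver and barrier tissue, did not rise. Its probe set, 1422217_a_at, read 7.40 and 7.33 on the IL-10+ arrays against 7.52 and 7.62, a difference of -0.20 (standard error 0.07, adjusted p = 0.0636). The groups did not overlap. The value passed downwards after quantile normalization (-0.22, adjusted p = 0.0465), after median centring (-0.28, adjusted p = 0.0176) and with dim probe sets left out (adjusted p = 0.0451). It also did in the fit on means per gene (-0.20, adjusted p = 0.0355), where the gene has this probe set alone. Leaving out an IL-10- array leaves 1 in that group, so only the difference is given, -0.25 without IL-10- replicate 3 and -0.16 without IL-10- replicate 4. Cyp1b1, a cytochrome that also turns over steroids, was dim in all 3 probe sets. The brightest, 1416612_at, read 6.38 and 6.32 against 6.26 and 6.37, and its difference of 0.04 (standard error 0.07) turned its sign after quantile normalization (-0.0381) and median centring (-0.0404). The others, 1432081_at and 1416613_at, differed by -0.000665 and 0.06, with adjusted p of 0.998 and 0.56, and lay between 5.44 and 5.67 on all arrays.

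Among genes outside the 10, lists of the same pathway gave a mixed picture. Of 7 AHR chaperones and partners 4 were measured, 1 rose and 1 fell (25% each, beside 8.37% and 22.9% of all genes). Arnt2 was the one that rose, and Ncoa1, a coactivator of nuclear receptors, fell by 0.55 (adjusted p = 0.000522). The HSP90 gene Hsp90aa1 differed by 0.05 in its brightest probe set and rose by 0.79 in another of its 5. Of 10 other genes known as AHR targets 7 were measured, 2 rose (28.6%) and 0 fell. Entpd1, the ectonucleotidase CD39, led them with means of 11.20 against 10.09 (1.11, standard error 0.07, adjusted p = 3.78e-05), and its other probe sets rose by 0.85 and 0.83. Gpr15, a receptor for homing to the colon, rose by 0.24 (adjusted p = 0.0239). After median centring, and without either IL-10+ replicate 1 or 2, 1 gene of that list rose. The remaining 5, the oxidoreductase gene Nqo1 among them (0.05), did not pass.

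Genes that make, take up or break down tryptophan metabolites, the source of AHR ligands, were counted next. Of 9 measured, 4 fell and 0 rose by the brightest probe set, 44.4% lower beside 22.9% of all genes. These were Afmid (-0.46), Kynu (-0.35) and Ido1 (-0.27), enzymes of the kynurenine route, and Slc7a5 (-0.30), the amino acid transporter that carries tryptophan and kynurenine. Afmid had opposite calls, since another of its 4 probe sets rose by 0.23 (adjusted p = 0.0286) and the others differed by 0.08 and -0.07, so no direction is given for that gene. Without IL-10+ replicate 1 or 2, and with dim probe sets left out, 2 fell. Ido1 stood at 5.80 and 6.07 and Kynu at 5.71 and 6.06, below the median probe set, and markers of B cells were lower in the same samples, as given above. The median difference was 0.06 over the chaperones and partners, 0.07 over the other targets and -0.19 over the tryptophan list, against -0.01 over all genes.

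Hif1a held the largest difference of the pathway and also the widest disagreement within 1 gene. Probe set 1448183_a_at read 9.99 and 10.07 on the IL-10+ arrays and 7.18 and 6.68 on the IL-10- arrays. It rose by 3.10 (standard error 0.14, adjusted p = 1.46e-05), or 8.57-fold with base 2 and 22.2-fold with natural logs, and ranked 4 of 45037 by size of the rise. Probe set 1431981_at read 8.05 and 8.05 against 6.28 and 6.19 and rose by 1.81 (standard error 0.07, adjusted p = 6.07e-06). Both passed under each alternative, with differences of 2.85 to 3.35 and 1.74 to 1.85.

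The brighter probe sets of Hif1a showed little of this. The brightest, 1427418_a_at, read 12.65 and 12.66 against 12.36 and 12.39, a rise of 0.27 (standard error 0.06, adjusted p = 0.0127) or 1.21-fold. It did not pass after median centring (0.20, adjusted p = 0.0527) nor without IL-10+ replicate 1 (0.28, adjusted p = 0.0825) or 2 (0.27, adjusted p = 0.0977). The second, 1416035_at, read 10.16 and 10.13 against 10.18 and 10.29, a difference of -0.09 (standard error 0.07, adjusted p = 0.373), and it turned to 0.0214 after quantile normalization. From lowest to highest, the differences of the 4 spanned 3.19, the 5th widest of 9010 genes with several probe sets, where the median span was 0.29. The 5' ends of the control transcripts given above, with differences of 0.68 to 2.16, moved in the direction of the dim probe sets, and their part in this gap was not tested. Where each Hif1a probe set lies along the transcript is not given in the sources used here.

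**Figure D2:**
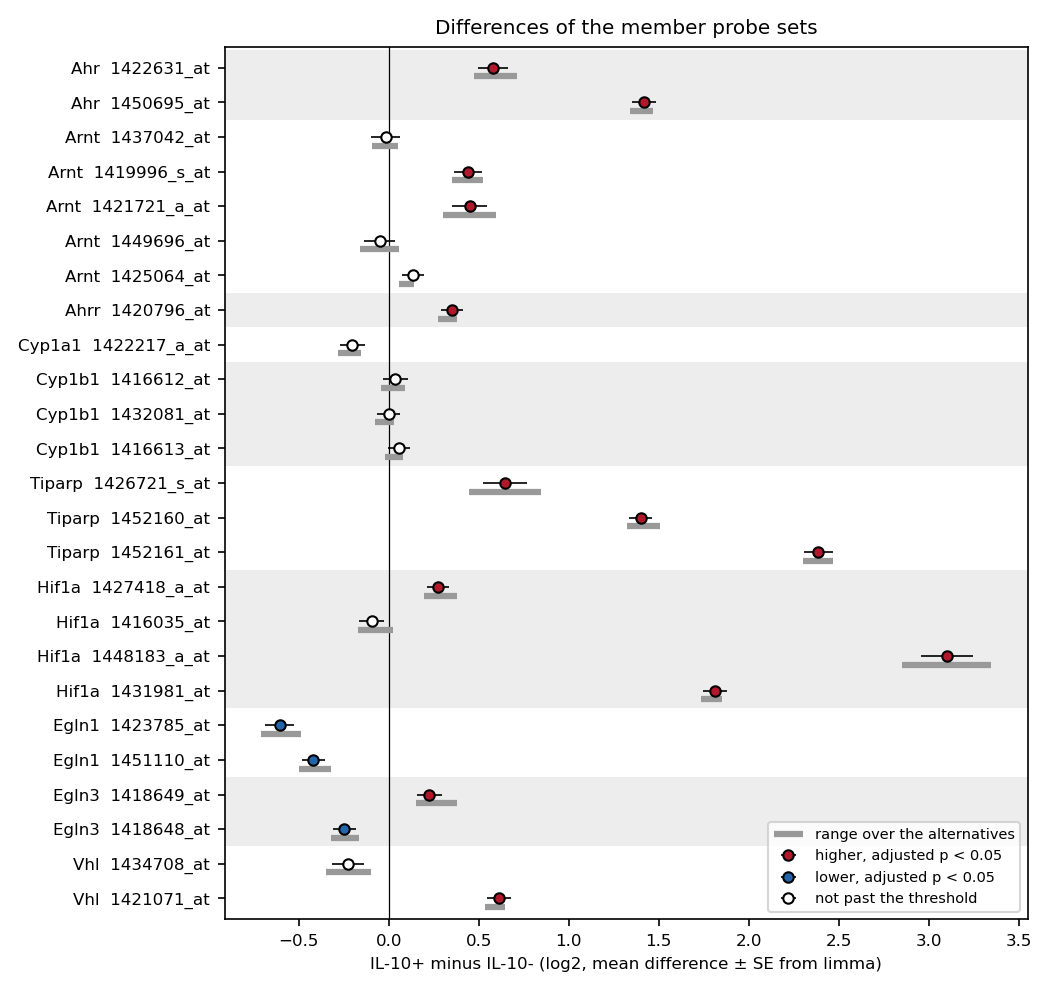
Horizontal axis, IL-10+ minus IL-10- difference (log2) of the 25 member probe sets with standard errors from limma, filled where past the threshold, with the range over the alternatives as a grey bar. Hif1a spans from -0.09 to 3.10 within 1 gene, while the 3 probe sets of Tiparp and both of Ahr lie right of 0 and both of Egln1 left of it.

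The hydroxylases that mark HIF1A for destruction are themselves known to be induced by HIF, so the 250 bases before their RefSeq start sites are shown, with matches of the HIF core ACGTG and of the AHR core GCGTG, on either strand, in capitals. They lie at chr8:124949255-124949504, minus strand, and at chr12:54203875-54204124, minus strand (GRCm38.p6), 5' to 3' in the direction of the gene.
Egln1: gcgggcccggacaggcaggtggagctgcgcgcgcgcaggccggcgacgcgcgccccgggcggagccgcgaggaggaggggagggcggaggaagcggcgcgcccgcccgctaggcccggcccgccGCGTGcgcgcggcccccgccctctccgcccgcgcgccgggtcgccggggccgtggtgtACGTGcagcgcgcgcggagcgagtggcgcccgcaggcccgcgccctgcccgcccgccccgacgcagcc
Egln3: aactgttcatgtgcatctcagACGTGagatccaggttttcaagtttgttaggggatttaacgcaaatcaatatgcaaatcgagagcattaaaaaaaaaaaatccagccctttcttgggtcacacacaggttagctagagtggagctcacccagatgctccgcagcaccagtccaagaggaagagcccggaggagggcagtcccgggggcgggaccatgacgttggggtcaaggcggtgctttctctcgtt

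Egln1 held 1 match of the HIF core 68 bases and 1 of the AHR core 126 bases before its start, and Egln3 held 1 of the HIF core 229 bases before it. The window of Hif1a itself held 2 matches of the HIF core, at 135 and 70 bases, and that of Vhl none of either core. No match of 1 core overlapped a match of the other. The HIF core was present in 16.6% of the same windows of the table.

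Egln1, the main oxygen sensor of the family, fell in both probe sets. Probe set 1423785_at read 10.18 and 10.14 on the IL-10+ arrays against 10.66 and 10.87, a difference of -0.61 (standard error 0.08, adjusted p = 0.00113), or 1.52-fold lower. Probe set 1451110_at read 9.38 and 9.40 against 9.84 and 9.78, a difference of -0.42 (standard error 0.06, adjusted p = 0.00193). Neither lost its call in any of the 9 alternatives, and the span between them was 0.19.

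Egln3, a hydroxylase known for its induction in hypoxia, passed in opposite directions. The bright 1418649_at read 11.83 and 11.83 against 11.54 and 11.66 and rose by 0.23 (standard error 0.07, adjusted p = 0.0412). The dimmer 1418648_at read 8.98 and 8.93 against 9.17 and 9.23 and fell by 0.25 (standard error 0.07, adjusted p = 0.0248). Of 9010 genes with several probe sets, 12% had such opposite calls. The rise was lost after median centring (0.15, adjusted p = 0.171), and when IL-10+ replicate 1 (adjusted p = 0.184), IL-10+ replicate 2 (adjusted p = 0.184) or IL-10- replicate 3 (0.17, adjusted p = 0.107) was left out. The fall was lost after quantile normalization (-0.17, adjusted p = 0.0955) and when IL-10+ replicate 1 (adjusted p = 0.092) or 2 (adjusted p = 0.186) was left out. Averaged over both probe sets, Egln3 differed by -0.01 (adjusted p = 0.92), so no direction is given for the gene.

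Vhl, the substrate receptor of the ligase that removes hydroxylated HIF1A, was split as well. The dimmer probe set, 1421071_at, read 7.28 and 7.35 against 6.72 and 6.68 and rose by 0.61 (standard error 0.06, adjusted p = 0.000364), under all 9 alternatives too. The brighter, 1434708_at, read 7.83 and 7.87 against 7.95 and 8.20, a difference of -0.22 (standard error 0.09, adjusted p = 0.107). It passed downwards after median centring (-0.30, adjusted p = 0.0352) and with IL-10- replicate 3 left out (-0.35, adjusted p = 0.00275). The mean of both rose by 0.19 (adjusted p = 0.0402).

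**Figure D3:**
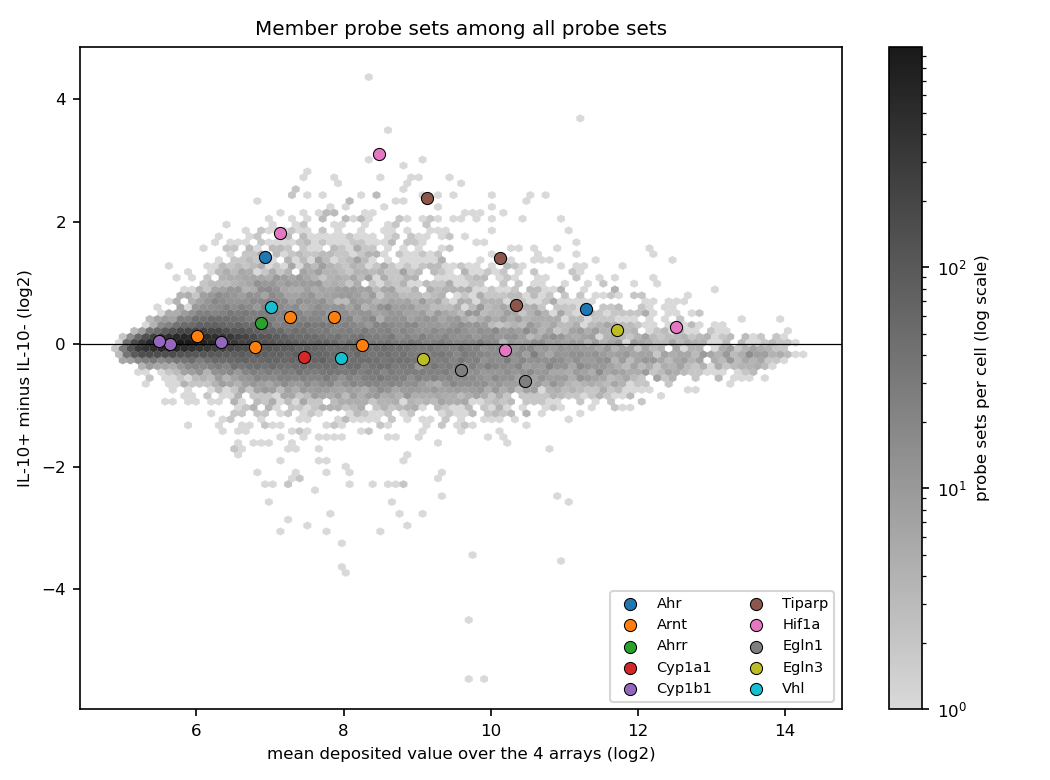
Mean value over the 4 arrays (log2, horizontal axis) against the difference IL-10+ minus IL-10- (log2, vertical axis), with all 45037 probe sets as grey hexagons and the members as coloured points. Hif1a and Tiparp reach 3.10 and 2.39 near the upper edge of the cloud, whereas Cyp1b1 lies in its dim left end.

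The rest of the oxygen-sensing machinery was counted the same way. Of 11 genes for further HIF subunits, hydroxylases and the VHL complex, 2 rose (18.2%, beside 8.37% of all genes) and 6 fell (54.5%, beside 22.9%) by their brightest probe sets, with a median difference of -0.28. Falls were the more frequent call over all genes too. Of these 8 genes, 3 had a further probe set called in the opposite direction, Crebbp, Cul2 and Eloc. Hif1an, the asparagine hydroxylase that blocks HIF activity, fell by 0.44 in its brightest probe set (7.86 against 8.30, adjusted p = 0.0035). Its other probe sets differed by -0.08 and 0.05 and did not pass. Egln2, the remaining prolyl hydroxylase, fell by 0.41 (9.19 against 9.60, adjusted p = 0.00192). Siah2, a ligase that degrades EGLN enzymes, fell by 0.30, while its other probe set differed by -0.12 and did not pass. Eloc, an adaptor of the VHL complex, fell in 2 of 4 probe sets (-0.33 and -0.25) and rose in another (0.32, adjusted p = 0.0353), so no direction is given for it. Rbx1, the RING subunit of the ligase, rose by 0.43 (adjusted p = 0.018). The alternative HIF subunits did not pass in their brightest probe sets, with 0.07 for Epas1 and -0.04 for Hif3a, although 1 dimmer probe set of each rose, by 0.37 and 0.22. The number that fell was 3 after quantile normalization and 2 with the probe sets of a gene averaged. It was also smaller without IL-10+ replicate 1 or 2, which leaves 1 array in that group. So it depends on the scaling, on the choice of probe set and on single arrays. The number that rose was 1 after median centring, without IL-10+ replicate 1 and without IL-10- replicate 3, and 0 without IL-10+ replicate 2.

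Of 27 genes known as HIF targets 24 were measured. By the brightest probe set 2 rose (8.33%, beside 8.37% of all genes) and 8 fell (33.3%, beside 22.9%), with a median difference of -0.04. Ero1a, an oxidase of the endoplasmic reticulum, rose by 0.53 (12.4 against 11.9, adjusted p = 0.000862), and Mxi1, an antagonist of MYC, by 0.43 (named beyond the rule as the other of the 2). Fam162a, a mitochondrial protein, fell by 0.52, Ankrd37 by 0.50, the histone demethylase gene Kdm3a by 0.49 and Ndrg1, a stress-response gene, differed by -0.46 (adjusted p = 0.00269). Pdk1, which keeps pyruvate from mitochondria, differed by -0.46 in its brightest probe set (adjusted p = 0.00205), named beyond the rule. In glycolysis, the brightest probe sets of Aldoa (-0.09), Pfkfb3 (-0.07), Ldha (-0.05), Tpi1 (-0.03), Pgk1 (-0.01), the glucose transporter gene Slc2a1 (-0.01), Hk2 (0.05) and Pfkfb4 (0.08) did not pass. Among their dimmer probe sets, 2 of the 5 of Aldoa fell (-0.44 and -0.29) and 1 of Pfkfb3 rose (0.43, adjusted p = 0.00936), all named after their values were seen. The number that rose was 4 after quantile normalization and also when IL-10- replicate 4 was left out, and the number that fell was 5 without IL-10+ replicate 1.

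The split between probe sets seen in Hif1a recurred in this list. P4ha1, a collagen hydroxylase gene, differed by 0.04 in the bright probe set and rose by 2.03 in the dim one. Mxi1 rose by 0.43 and 1.93, and the probe sets of Ero1a differed by 0.53, 0.19 and 1.72. For Ndrg1, 2 of 5 fell (-0.46 and -0.37) and 2 rose, by 1.17 and 0.71. By the mean over each gene's probe sets, 5 HIF targets rose in place of 2. These genes were named for the split after their values were seen, beside 5' control probe sets that were higher in the same samples.

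**Figure D4:**
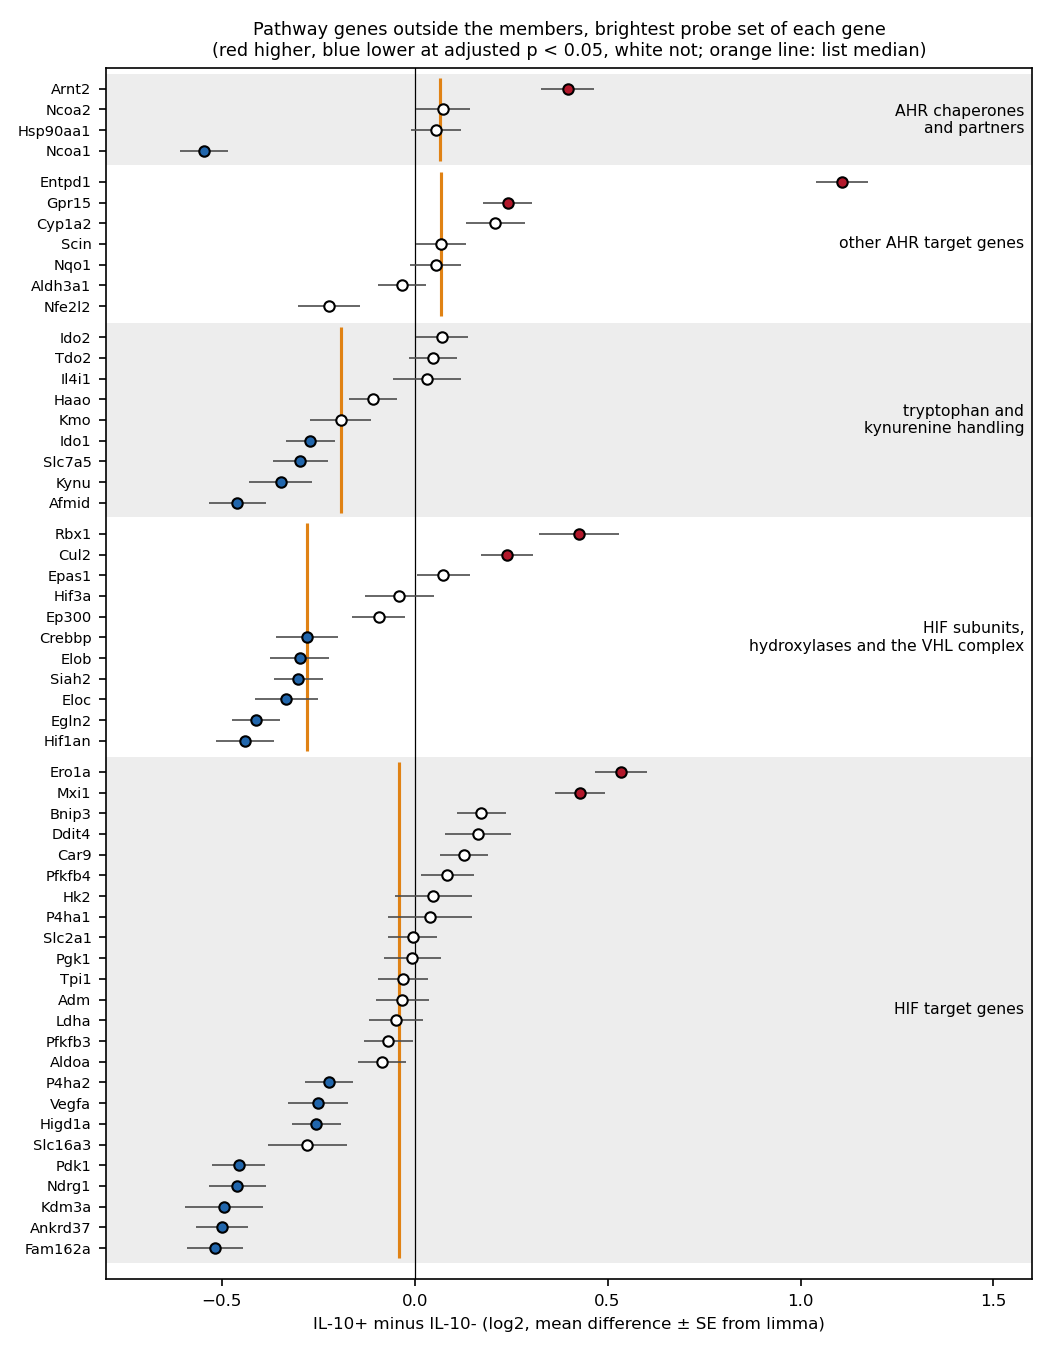
Horizontal axis, IL-10+ minus IL-10- difference (log2, with standard errors from limma) of the brightest probe set of each measured pathway gene outside the 10, by list, with the list median as an orange line. Entpd1 stands apart at 1.11, and the medians lie between -0.28 for the HIF machinery and 0.07 for other AHR targets.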

How the data were processed

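Biotin-labelled RNA of 4 samples was hybridized to Affymetrix Mouse Genome arrays, 1 per sample. The authors normalized the signal intensities by variance stabilization in Bioconductor and deposited 45101 values for each array. The base of the deposited values is not stated, and they were taken as log2 values after the authors' variance stabilization. The highest, 14.4, would correspond as a natural log to 20.8 in log2 units, beyond a 16-bit scanner, but this transformation can add an offset, and the study's legends give its array differences as natural logs, so the base is not settled. How probes were summarised, and the genome build, are not given in the sources used here. This scaling can draw the values of dim probe sets together, and how far it did so here was not tested.

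The 64 probe sets of controls were kept out of the fit. Groups were compared with limma 3.58.1 under R 4.3.3 by its moderated test (functions lmFit and eBayes, two-sided), p-values were adjusted by Benjamini-Hochberg over 45037 probe sets, and the code was tested on simulated data. The prior had 5.44 degrees of freedom. Names came from the platform annotation, where 34958 probe sets name 1 gene, 932 several and 9211 are not listed. The brightest probe set of a gene has the highest mean over the 4 arrays. Named were all member probe sets, up to 5 passing genes per list by size, direct partners, and Il10. Members and lists were chosen with earlier results of these data known. The settings changed in turn were the scaling (quantile normalization or median centring), a filter on dim probe sets, a trend or robust prior, each array left out, the threshold of the methods, natural logs, probe sets without suffix x or s, and means per gene. Of the listed genes, 12 had no probe set naming them alone and were not analysed here. Depth has no counterpart on arrays, and their number limits the precision. Plots used matplotlib 3.10.9 (Python 3.11.15).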

Additional observations from a re-analysis of the deposited data

How the results depend on the processing

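Of 231 values of single probe sets or genes under the alternatives, 198 kept their direction and side of the threshold, 12 lost the call, 7 gained one and 14 changed sign, and the cause was not tested. The 13 member probe sets that rose were 5 at 2-fold with an adjusted p under 0.001, with the values read as log2 or as natural logs, and 5 genes with probe sets averaged. The 3 that fell were 5 after median centring and 0 at that threshold under either reading. By the brightest probe set, the 5 genes that rose were 3 after median centring and 0 at that threshold, and the 1 that fell was 2 after quantile normalization, 3 after median centring, 2 with dim probe sets left out, 2 with means per gene and 0 at that threshold. Some of these counts moved too when an array was left out, and they are given here only for settings that kept all 4 arrays. With an array left out, its group held 1 array. The brightest probe set of Hif1a then differed by 0.28 without IL-10+ replicate 1 and by 0.27 without IL-10+ replicate 2, and that of Egln3 by 0.23 each time. Without IL-10- replicate 3 they differed by 0.26 and 0.17. With all arrays these differences were 0.27 and 0.23, so a call lost in this way need not mean a smaller difference. The sign changes were these. Arnt 1437042_at went to 0.0191 after quantile normalization, 0.0492 without IL-10+ replicate 2, 0.05002 without IL-10- replicate 3 (-0.0845 without replicate 4) and 0.19 averaged over the gene, and 1449696_at to 0.0578 without IL-10- replicate 3 (-0.158 without replicate 4). Cyp1b1 1416612_at went to -0.0381 after quantile normalization, -0.0404 after median centring and -0.0203 without IL-10- replicate 3 (0.0917 without replicate 4), 1416613_at to -0.0179 after median centring, and 1432081_at to 0.0156 without IL-10+ replicate 1 and 0.0276 without IL-10- replicate 3 (-0.0289 without replicate 4). Hif1a 1416035_at went to 0.0214 after quantile normalization, and with probe sets averaged Egln3 went to -0.0099 and Vhl to 0.19. For the chaperones and partners 3 rose with probe sets averaged, and 1 other AHR target fell after median centring and without IL-10- replicate 3. No paired analysis was made, because the labels do not say which IL-10+ and IL-10- samples, if any, came from the same cells.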
